A study of Homo sapiens with 6 samples.

Results

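The zinc finger genes of chromosome 19, bands q13.2 to q13.33, were followed in HCT116, an established cell line from a human colorectal cancer, and in its derivative DKO1. The genes were chosen by position from a list of 32 symbols, most of them in the dense cluster of band q13.31. Each was looked up by its Ensembl identifier among 57820 human rows, silent genes included. A row was found for 31 of the 32. ZFP112 was found under its current symbol ZNF112, and no row was matched to ZNF229, which is not analysed here. In chromosome order the cluster runs from ZNF283 to ZNF180 and holds 19 of the 31 genes, and the other 12 lie on its flanks.

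Messenger RNA was sequenced from 3 samples of the parental line (WT) and 3 of DKO1, in which DNMT1 and DNMT3B are knocked out. DNMT1 maintains DNA methylation when the genome is copied, and DNMT3B places it at sites that had none. The culture medium was the same for both, and the labels name no other treatment. DKO1 is a line made from WT, so the knockout of these genes and any other difference between the lines cannot be told apart. Whether replicates came from separate cultures is not stated, so p-values reflect only how much these samples vary, which may be technical variation.

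Most genes of this cluster encode KRAB zinc finger proteins. Their tandem C2H2 fingers bind DNA, and the KRAB domain recruits the corepressor TRIM28, which brings in the histone methyltransferase SETDB1, HP1 proteins and the NuRD complex. Many of these proteins bind transposable elements and place them under H3K9 trimethylation. The cluster arose by tandem duplication, so neighbouring genes are relatives that lie close together. The bases of a C followed by a G (CG) are the main sites of DNA methylation in human cells.

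The RefSeq sequences before 8 of the genes are shown because they come from related genes that differed in level. ZNF222, ZNF284 and ZNF234 had almost no transcript in WT and were expressed in DKO1, while ZNF230, ZNF224 and ZNF225, which lie next to them, were expressed in both. ZNF404 and ZNF285, farther along on either side, were also low in WT and expressed in DKO1. Each line gives the 250 bases before the RefSeq start, 5′ to 3′ on the strand of the gene, in build GRCh38.p14, with every CG in capitals. The windows are chr19:44025129-44025378, plus strand, for ZNF222, chr19:44002707-44002956, plus strand, for ZNF230, chr19:44071909-44072158, plus strand, for ZNF284, and chr19:44094111-44094360, plus strand, for ZNF224. Those of the others are chr19:44141304-44141553, plus strand, for ZNF234, chr19:44113149-44113398, plus strand, for ZNF225, chr19:43883965-43884214, minus strand, for ZNF404, and chr19:44401609-44401858, minus strand, for ZNF285.
ZNF222: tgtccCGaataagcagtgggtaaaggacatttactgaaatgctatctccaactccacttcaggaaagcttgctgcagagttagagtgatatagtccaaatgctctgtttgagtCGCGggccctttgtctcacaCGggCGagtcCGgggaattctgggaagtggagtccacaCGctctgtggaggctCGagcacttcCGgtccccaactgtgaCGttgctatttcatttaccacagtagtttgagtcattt
ZNF230: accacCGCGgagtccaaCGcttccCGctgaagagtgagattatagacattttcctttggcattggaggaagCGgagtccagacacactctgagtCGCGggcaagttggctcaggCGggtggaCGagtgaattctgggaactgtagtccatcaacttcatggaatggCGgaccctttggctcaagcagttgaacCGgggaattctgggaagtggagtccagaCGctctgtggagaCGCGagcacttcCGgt
ZNF284: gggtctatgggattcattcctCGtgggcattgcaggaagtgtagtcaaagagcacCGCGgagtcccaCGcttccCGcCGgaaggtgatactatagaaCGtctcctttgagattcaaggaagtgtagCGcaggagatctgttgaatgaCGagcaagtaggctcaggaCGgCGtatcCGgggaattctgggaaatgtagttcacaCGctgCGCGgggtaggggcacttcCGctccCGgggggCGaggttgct
ZNF224: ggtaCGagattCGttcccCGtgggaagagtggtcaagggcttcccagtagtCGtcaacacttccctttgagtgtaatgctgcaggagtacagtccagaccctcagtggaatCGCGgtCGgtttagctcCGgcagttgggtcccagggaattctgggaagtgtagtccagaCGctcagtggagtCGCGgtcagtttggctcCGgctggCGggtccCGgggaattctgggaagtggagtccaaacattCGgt
ZNF234: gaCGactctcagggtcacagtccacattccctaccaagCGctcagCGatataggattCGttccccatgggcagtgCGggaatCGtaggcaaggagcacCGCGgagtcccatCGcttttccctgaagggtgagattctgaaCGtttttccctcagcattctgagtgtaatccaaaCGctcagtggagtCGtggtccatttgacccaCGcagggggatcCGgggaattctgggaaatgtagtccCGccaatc
ZNF225: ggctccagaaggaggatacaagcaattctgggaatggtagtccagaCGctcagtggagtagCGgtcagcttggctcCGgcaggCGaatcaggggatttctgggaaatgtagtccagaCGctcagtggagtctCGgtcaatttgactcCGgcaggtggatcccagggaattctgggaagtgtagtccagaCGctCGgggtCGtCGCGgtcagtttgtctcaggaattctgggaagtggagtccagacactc
ZNF404: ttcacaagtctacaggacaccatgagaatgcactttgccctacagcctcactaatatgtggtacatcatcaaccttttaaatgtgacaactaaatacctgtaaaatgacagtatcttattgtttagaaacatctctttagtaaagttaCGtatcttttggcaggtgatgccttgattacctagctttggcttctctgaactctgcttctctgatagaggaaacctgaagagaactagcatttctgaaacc
ZNF285: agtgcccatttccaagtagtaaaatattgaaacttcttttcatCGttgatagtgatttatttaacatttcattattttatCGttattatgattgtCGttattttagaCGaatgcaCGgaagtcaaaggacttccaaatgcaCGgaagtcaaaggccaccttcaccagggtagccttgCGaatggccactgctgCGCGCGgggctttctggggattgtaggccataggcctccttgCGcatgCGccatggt

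The levels are TPM, a share of all transcripts that is corrected for gene length and has the same total in every sample, so levels of different genes can be compared. They keep no record of depth, which is unknown. Differences were tested with limma on log2(TPM + 1), over the 13604 genes that reached 1 TPM in 3 or more of the 6 samples, and a gene was called at a Benjamini-Hochberg adjusted p below 0.05. Fold changes on that scale are DKO1 minus WT and understate the change of genes with low values. As a check of the labels, DNMT1 had means of 242 ± 9.8 TPM (WT) and 36.2 ± 9.2 TPM (DKO1) (SD, n = 3, as for all means here) and DNMT3B of 7.36 ± 0.76 and 4.42 ± 0.75 TPM. Transcripts of both genes thus remained in DKO1, and protein was not measured here. Mitochondrial transcripts took 19.7% to 20.1% of the TPM in WT samples and 26.9%, 27.7% and 21.2% in DKO1 replicates 1, 2 and 3. Of 9 markers of colon epithelium, EPCAM, KRT8 and KRT18 were at 37.34 TPM or above in every sample, and KRT19 and CLDN7 at 5.85 to 35.52 TPM. CDH1 was at 2.63 to 3.54 TPM in WT and 9.56 to 10.11 TPM in DKO1. The other markers were low, with CDX2 at 0.52 to 1.38 TPM, VIL1 at 0.2 to 0.43 TPM, and CDX1 at 0 TPM in WT and at most 0.24 TPM in DKO1. The 5 blood markers stayed at or below 0.61 TPM and CDH5, of endothelium, at or below 0.03 TPM. Among 5 fibroblast markers COL1A2 was at 0 to 0.05 TPM in WT and 0.93 to 1.66 TPM in DKO1, and the other 4 stayed at or below 0.84 TPM.

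More of the zinc finger genes were on in DKO1 than in WT. At least 1 TPM in every sample was reached by 19 of the 31 genes in WT and by 25 in DKO1. Over all human genes the number at 1 TPM or more was also higher in DKO1, at 13327 to 14419 per sample against 12110 to 12465 in WT. In each WT sample 4 or 5 of the genes were listed at 0, and in each DKO1 sample none was. The summed level of the 31 genes was 140.5, 136.2 and 149.4 TPM in WT replicates 1, 2 and 3 and 168.0, 191.8 and 255.1 TPM in the DKO1 replicates. DKO1 replicate 3, the DKO1 sample with the lowest mitochondrial share, was the highest of the 3 for 23 of the 26 tested genes, and replicate 1 the lowest for 20. The same counts were not made over all tested genes. Over the tested genes above 0 in all 6 samples, the median-ratio size factor was also largest in DKO1 replicate 3, at 1.139. It was 1.018 in DKO1 replicate 1 and 0.967 in replicate 2, so there replicate 1 was not the lowest. How far the counts are particular to these genes is not known. The part of the mitochondrial share in these levels was not tested.

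**Figure D1:**
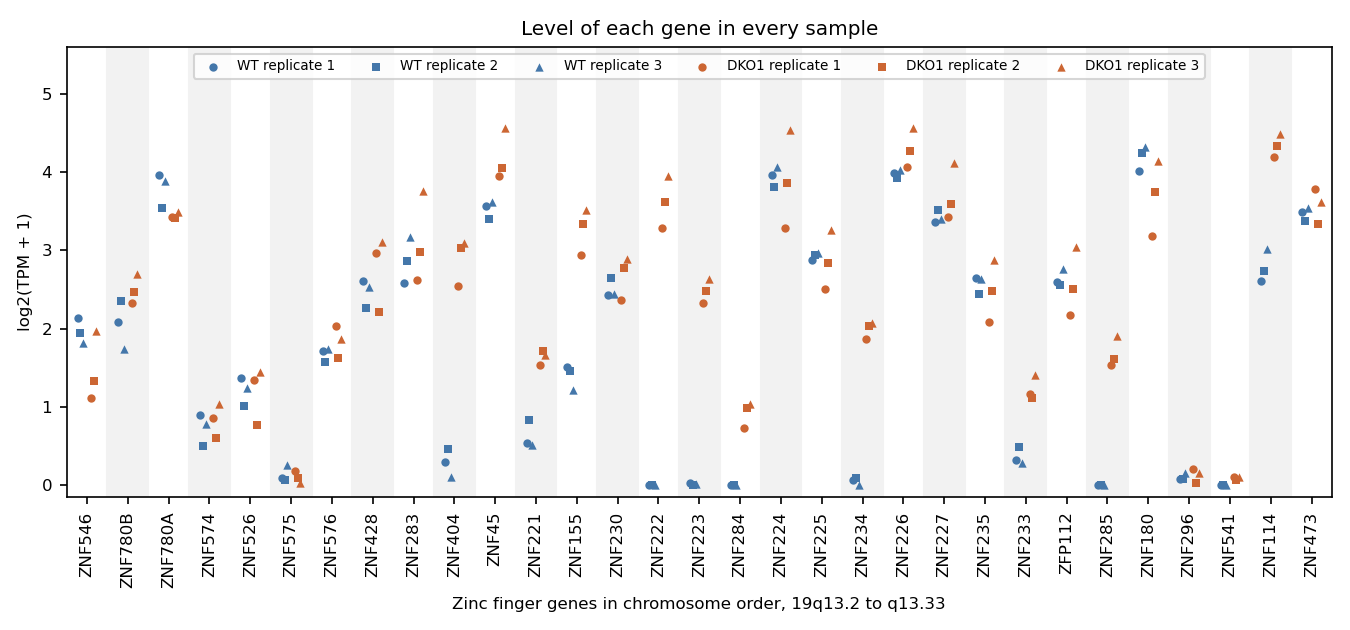
Level of each of the 31 zinc finger genes in the 6 samples, as log2(TPM + 1) on the vertical axis, with genes in chromosome order. Each point is 1 sample, blue for WT and orange for DKO1, with circles, squares and triangles for replicates 1, 2 and 3. ZNF222, ZNF223, ZNF284 and ZNF285 lie at or next to 0 in all WT samples and above it in all DKO1 samples, while ZNF224, ZNF226 and ZNF227 are high in both.

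Of the 26 genes that could be tested, 10 rose in DKO1, 0 fell and 16 did not pass. Among all tested genes 18.8% were called higher and 9.6% lower, 28.4% in either direction. The filter bears on this count, since 7 of the 10 had a WT mean below 1 TPM and could enter only through their DKO1 values. All 7 were called, as were 78.8% of all 1399 genes that entered the test at such a WT level. Among the 19 genes with a WT mean of at least 1 TPM, 3 rose, ZNF45, ZNF155 and ZNF114, where 11.9% of all genes at that level were called higher and 10.7% lower. Their median log2 fold change was 0.17, against 0.01 for all genes at that level. DKO1 values lay above all WT values for 11 of the 26 genes, against 27.5% of all tested genes, and below them for 1, ZNF780A, against 17.8%. With any 1 sample left out, 9 or 10 genes rose.

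A run of 3 consecutive genes on the same strand, ZNF222, ZNF223 and ZNF284, was silent in WT. ZNF222 was listed at 0 in all 3 WT samples and stood at 8.77, 11.25 and 14.52 TPM in DKO1 replicates 1, 2 and 3. Its log2 fold change of 3.62 (SE 0.19, limma adjusted p = 1.98e-05) was the largest among the 26. ZNF223 was at 0.02, 0 and 0.01 TPM in WT and at 4.02, 4.57 and 5.23 TPM in DKO1 (log2 fold change 2.47, SE 0.14, limma adjusted p = 2.5e-05). The groups of both genes were far apart, with no WT sample above 0.02 TPM and no DKO1 sample below 4.02 TPM. ZNF284 was listed at 0 in WT and at 0.66, 0.99 and 1.06 TPM in DKO1, too low to enter the test. Without the filter its log2 fold change was 0.92 (SE 0.10, limma adjusted p = 0.00198).

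These 3 genes share transcript sequence with AC067968.1 (ENSG00000267022.1), a gene model on the same strand that runs from ZNF222 into ZNF284. It was listed at 0 in WT and at 1.24, 1.48 and 1.83 TPM in DKO1. In GENCODE release 29 transcripts, 42.3% of the stretches of 100 bases of ZNF223, 42.5% of those of ZNF284 and 11.8% of those of ZNF222 also occur in other genes, in each case in this model. The split of reads among the 4 is therefore uncertain, while all of them were at or next to 0 in WT.

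On either side of this run lie genes that did not pass. ZNF230, just before it, was at 4.4, 5.29 and 4.45 TPM in WT and 4.17, 5.86 and 6.39 TPM in DKO1 (log2 fold change 0.17, SE 0.19, limma adjusted p = 0.546). ZNF224, just after it, encodes a KRAB repressor described at the aldolase A promoter. It was at 14.63, 13.01 and 15.79 TPM in WT and at 8.74, 13.48 and 22.29 TPM in DKO1. The DKO1 samples lay both below and above the WT range, and the log2 fold change was −0.05 (SE 0.30, limma adjusted p = 0.912). ZNF225, the next gene, was at 6.37, 6.69 and 6.79 TPM in WT and 4.69, 6.15 and 8.56 TPM in DKO1, with the WT values inside the DKO1 range. These 3 genes share no stretch of 100 bases on the same strand with another gene. On the opposite strand the antisense gene ZNF225-AS1 overlaps ZNF224 and ZNF225. It was at 0.45, 0.49 and 0.54 TPM in WT and 1.18, 1.11 and 1.2 TPM in DKO1.

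ZNF234 follows ZNF225 on the same strand and was near 0 in WT again. Its WT values were 0.05, 0.07 and 0 TPM and its DKO1 values 2.66, 3.11 and 3.21 TPM (log2 fold change 1.94, SE 0.13, limma adjusted p = 4.78e-05). The next genes, ZNF226 and ZNF227, were expressed in both lines. ZNF226, with a WT mean of 14.8 ± 0.62 TPM and a DKO1 mean of 19 ± 3.5 TPM, had non-overlapping groups but did not pass (limma adjusted p = 0.177). ZNF227, with means of 9.77 ± 0.59 and 12.4 ± 3.5 TPM, did not pass either (limma adjusted p = 0.337).

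Farther along the cluster, ZNF285 was off in WT. All 3 WT samples listed it at 0, and the DKO1 samples at 1.89, 2.05 and 2.74 TPM (log2 fold change 1.68, SE 0.14, limma adjusted p = 0.000144). ZFP112, the gene before it on the chromosome, was at 5.06, 4.91 and 5.8 TPM in WT and 3.53, 4.68 and 7.24 TPM in DKO1, so the groups overlapped (limma adjusted p = 0.859). ZNF233 rose from 0.25, 0.4 and 0.22 TPM in WT to 1.25, 1.17 and 1.65 TPM in DKO1 (log2 fold change 0.87, SE 0.14, limma adjusted p = 0.00345). Its call was lost under quantile normalization, where the log2 fold change was 0.15 (limma adjusted p = 0.53). The gene model of ZNF235 on the opposite strand spans ZNF233, and whether counting used the strand is not given in the sources used here. ZNF235 itself had means of 4.99 ± 0.46 TPM (WT) and 4.74 ± 1.6 TPM (DKO1), which did not pass (limma adjusted p = 0.784).

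At the other end of the cluster, 4 neighbouring genes rose. ZNF404 was at 0.23, 0.38 and 0.08 TPM in WT and at 4.83, 7.15 and 7.53 TPM in DKO1 (log2 fold change 2.60, SE 0.20, limma adjusted p = 8.11e-05). AC006213.2 (ENSG00000267058.1), a lincRNA model on the same strand that overlaps ZNF404, went from 0.15, 0 and 0.31 TPM to 1.46, 1.08 and 5.17 TPM, and 14.7% of the ZNF404 stretches of 100 bases occur in it. ZNF155 rose 5.31-fold, from 1.86, 1.74 and 1.33 TPM to 6.7, 9.08 and 10.42 TPM (log2 fold change 1.87, SE 0.19, limma adjusted p = 0.000378). ZNF221 rose 3.8-fold, from 0.45, 0.79 and 0.43 TPM to 1.9, 2.28 and 2.16 TPM. Its log2 fold change was 1.01 (SE 0.15, limma adjusted p = 0.00222), and the call was lost under quantile normalization (limma adjusted p = 0.0949). In all of these genes the lowest DKO1 sample was above the highest WT sample.

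ZNF45, between ZNF404 and ZNF221, was already expressed in WT and differed least among the called genes. It was at 10.87, 9.55 and 11.27 TPM in WT and at 14.43, 15.63 and 22.67 TPM in DKO1, 1.66-fold higher (log2 fold change 0.66, SE 0.19, limma adjusted p = 0.0385). The call was lost without WT replicate 1, 2 or 3 (limma adjusted p = 0.0985, 0.133 and 0.0963) and with no filter on low values (0.0565). ZNF283, the first gene of the cluster, had means of 6.44 ± 1.5 TPM (WT) and 8.18 ± 3.9 TPM (DKO1), which did not pass (limma adjusted p = 0.602). ZNF180, the last, was at 15.14, 17.98 and 19.01 TPM in WT and 8.07, 12.43 and 16.64 TPM in DKO1. Only DKO1 replicate 3 reached the WT range, and the difference (log2 fold change −0.50, SE 0.25) did not pass (limma adjusted p = 0.172). Without DKO1 replicate 3 it was called lower (log2 fold change −0.73, limma adjusted p = 0.0392).

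**Figure D2:**
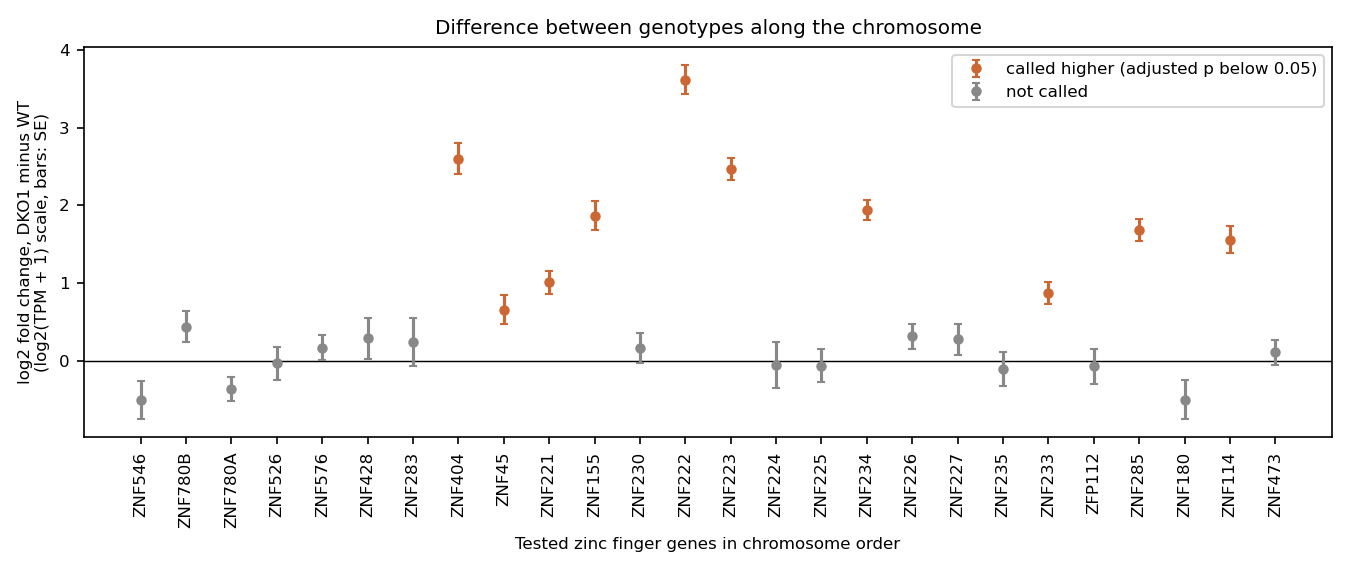
Log2 fold change of the 26 tested zinc finger genes, DKO1 minus WT, on the log2(TPM + 1) scale, in chromosome order. Points are limma estimates from 3 samples per genotype, bars are standard errors, and orange marks genes called higher. Called genes such as ZNF222 (3.62) and ZNF234 (1.94) alternate with genes near 0 such as ZNF230 (0.17), ZNF224 (−0.05) and ZNF225 (−0.06).

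Outside the cluster 1 of the 8 tested genes was called, as higher, where 18.8% of all tested genes were called higher and 9.6% lower. ZNF114 was at 5.1, 5.65 and 7.13 TPM in WT and at 17.39, 19.22 and 21.52 TPM in DKO1, 3.25-fold higher (log2 fold change 1.56, SE 0.17, limma adjusted p = 0.000434). The lowest DKO1 sample was well above the highest WT sample. ZNF473, also known as ZFP100, takes part in the 3′ end processing of histone messenger RNA with the U7 particle. Its means were 10.1 ± 0.63 TPM (WT) and 11.1 ± 1.9 TPM (DKO1), which did not pass (limma adjusted p = 0.659). The gene model of VRK3, at 22.29 to 32.78 TPM over the samples, overlaps ZNF473 on the opposite strand.

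The zinc finger genes ZNF546, ZNF780B and ZNF780A, at the proximal end, were expressed in both lines. ZNF546 was at 3.41, 2.84 and 2.54 TPM in WT and 1.16, 1.52 and 2.91 TPM in DKO1, with overlapping groups (log2 fold change −0.50, SE 0.24, limma adjusted p = 0.164). It was called lower without DKO1 replicate 3 (log2 fold change −0.75, limma adjusted p = 0.0172) and under quantile normalization (−0.96, limma adjusted p = 0.0194). ZNF780A was at 14.68, 10.7 and 13.83 TPM in WT and 9.72, 9.65 and 10.28 TPM in DKO1, so every DKO1 value was below every WT value (log2 fold change −0.36, SE 0.16, limma adjusted p = 0.134). It was called lower under quantile normalization (−0.51, limma adjusted p = 0.0449). Its relative ZNF780B had means of 3.24 ± 0.89 TPM (WT) and 4.69 ± 0.74 TPM (DKO1) (limma adjusted p = 0.153), and 0.383% of the ZNF780A stretches of 100 bases occur in ZNF780B.

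The remaining flanking genes were low or differed by less than the spread between samples. ZNF428 was at 4.57 ± 0.69 and 6.02 ± 2.1 TPM in WT and DKO1, ZNF576 at 2.2 ± 0.2 and 2.62 ± 0.5 TPM, and ZNF526 at 1.33 ± 0.29 and 1.32 ± 0.54 TPM, with limma adjusted p from 0.443 to 0.936. ZNF574, at 0.667 ± 0.23 and 0.8 ± 0.27 TPM, did not pass the filter on low values. ZNF575 stayed at or below 0.2 TPM and ZNF296, a factor of embryonic stem cells, at or below 0.16 TPM in every sample. ZNF541, which acts in meiosis in male germ cells, was listed at 0 in WT and at 0.08, 0.05 and 0.08 TPM in DKO1. Without the filter it was called (log2 fold change 0.10, SE 0.02, limma adjusted p = 0.036), at a level that stayed under 0.1 TPM. Unlike the silent genes inside the cluster, these 3 silent genes outside it did not reach 0.5 TPM in DKO1.

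Counted by state alone, 10 of the 31 genes were below 0.5 TPM in every WT sample. Of these, 6 reached 1 TPM in all DKO1 samples, namely ZNF404, ZNF222, ZNF223, ZNF234, ZNF233 and ZNF285, all of them inside the cluster. ZNF284 passed at a DKO1 threshold of 0.5 TPM, and 4 of the 6 passed when WT had to be below 0.1 TPM. The thresholds were set after the values had been seen, so this is a description with no test. The 6 are 19.4% of the 31 genes, where 2.77% of protein-coding rows and 1.29% of all human rows met the same rule. Among rows silent in WT alone, the shares were 60% of the 10, 6.98% for protein-coding rows and 1.74% for all human rows. No gene of the 31 met the reverse rule, with WT expressed and DKO1 silent.

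The other zinc finger genes of chromosome 19 were counted in the same way. Of 230 such protein-coding genes outside the 31, 155 were tested, 73 rose (47.1%) and 12 fell (7.74%), with a median log2 fold change of 0.40. Of the 26 genes described here 38.5% rose and 0 fell, with a median of 0.29, and the median of all tested genes was 0.07. In every set, genes low in WT could enter the test only through their DKO1 values. The shares called higher and the medians therefore depend in part on the filter. The number that fell was 7, 5 and 6 without WT replicates 1, 2 and 3, and 7 without DKO1 replicate 1. It was 20 when DKO1 replicate 3 was left out. By the rule of state, 55 of the 230 (23.9%) were silent in WT and expressed in DKO1. Zinc finger genes on other chromosomes had 38 higher and 31 lower of 236 tested (16.1% and 13.1%), a median of −0.01, and 20 of 299 (6.69%) silent in WT and expressed in DKO1. The sets also differed in how many genes were silent in WT, 124 of the 230 and 71 of the 299. Of these silent genes, 44.4% and 28.2% were expressed in DKO1. The difference between these sets was not tested.

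**Figure D3:**
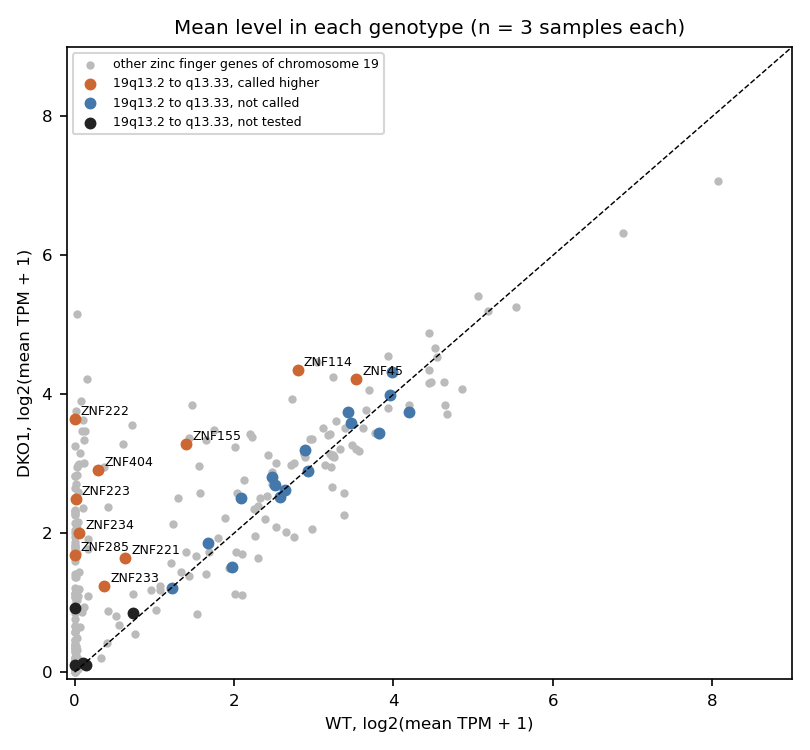
Mean level in WT (horizontal) and DKO1 (vertical) as log2(mean TPM + 1), n = 3 samples each, for the 31 zinc finger genes (orange called higher, blue not called, black not tested) and 230 other zinc finger genes of chromosome 19 in grey. The dashed line marks equal levels. ZNF222, ZNF223, ZNF234 and ZNF285 rise from the left edge, as do many grey points, and the genes in blue lie along the line.

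Genes of other families that lie among the zinc finger genes were counted as well. Between ZNF546 and ZNF473 there were 477 rows of other genes, not counting those whose symbol begins like that of a zinc finger gene. Of these, 144 were tested, 15 rose (10.4%, against 18.8% of all tested genes) and 3 fell (2.08%, against 9.6%). The median log2 fold change of the 144 was 0.12. With the replicate number as a block, 26 rose and 6 fell. The number of rises was 7 without WT replicate 2, 8 without WT replicate 3, and 8 without DKO1 replicate 1. It was 33 when DKO1 replicate 2 was left out. The falls numbered 1 without WT replicate 1 or 3 and 8 without DKO1 replicate 3. The largest rise was of SLC17A7, a vesicular glutamate transporter, from 1.09 ± 0.38 to 7.5 ± 1 TPM (log2 fold change 2.04, SE 0.19, limma adjusted p = 0.000225). AC006213.2 came next (log2 fold change 1.46, limma adjusted p = 0.0278), followed by PNMA8A, which went from a listed 0 to 1.75 ± 0.36 TPM (log2 fold change 1.45, limma adjusted p = 0.000279). The 3 falls were of the apolipoprotein gene APOC1, from 31.3 ± 1.6 to 11.5 ± 3.3 TPM, the potassium channel gene KCNN4, from 3.42 ± 0.49 to 1.4 ± 0.66 TPM, and LYPD5, from 2.77 ± 0.092 to 1.55 ± 0.13 TPM (limma adjusted p = 0.00241, 0.0205 and 0.018). Inside the cluster itself 7 rows were counted as other genes, and the 2 of these that were tested, AC067968.1 and AC006213.2, rose. The antisense gene ZNF225-AS1, also inside the cluster and above 1 TPM in every DKO1 sample, was not among those counted.

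The genes through which KRAB proteins act were expressed in both lines. Of 21 cofactor genes 0 rose and 4 fell (19%), CBX1, CBX3, CHD3 and TASOR, with a median log2 fold change of −0.18. Among all tested genes 18.8% rose and 9.6% fell, and the difference from these shares was not tested. TRIM28 was at 147.98, 80.88 and 134.2 TPM in WT and 116.38, 45.77 and 147.61 TPM in DKO1. Replicate 2 was the lowest in both genotypes, and the gene did not pass (log2 fold change −0.34, SE 0.43, limma adjusted p = 0.606). SETDB1 was at 33.5 ± 5.4 and 31.6 ± 2.8 TPM (limma adjusted p = 0.763). CBX3, which encodes the HP1 protein gamma, was at 702.49, 822.6 and 783.27 TPM in the WT samples and 305.22, 422.66 and 553.76 TPM in those of DKO1. All DKO1 values were lower, 1.8-fold on average (log2 fold change −0.89, SE 0.21, limma adjusted p = 0.0181). TASOR, a subunit of the HUSH silencing complex, was 1.85-fold lower, from 42.5 ± 4.7 to 23 ± 7.8 TPM (log2 fold change −0.90, SE 0.23, limma adjusted p = 0.0261). CBX1, another HP1 gene, and CHD3, a NuRD subunit, were 1.26-fold and 1.6-fold lower (limma adjusted p = 0.0433 and 0.0457). The number of cofactor genes called lower was 1, 0 and 0 without WT replicates 1, 2 and 3, and 2 without DKO1 replicate 1 or 2, so the count depends on single samples. It was also 2 with mitochondrial and non-human rows left out, 5 without DKO1 replicate 3, 5 with median-ratio scaling and 6 with the replicate block.

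The promoter windows printed above were compared with the levels. RefSeq windows were matched for 25 of the 31 genes, all but ZNF221, ZNF155, ZNF223, ZNF233, ZNF114 and ZNF473. ZNF574, ZNF576 and ZFP112 had several windows, and only the first listed for each gene was used. The 5 genes taken as low in WT and higher in DKO1 were ZNF404, ZNF222, ZNF284, ZNF234 and ZNF285. Each had a WT mean below 1 TPM, a DKO1 mean of at least 0.5 TPM and no overlap between groups. They had 1 to 18 CG dinucleotides in the 250 bases, with a median of 12. The 16 genes at a WT mean of 1 TPM or above had 7 to 30, with a median of 14.5, and all 27305 promoters had a median of 11. The other 4 genes with a WT mean below 1 TPM, taken as low in both lines, had 5 to 39, with a median of 17. Among them ZNF574 had a DKO1 mean of 0.8 TPM, with overlapping groups. ZNF541, with 39, was at 0 TPM in WT and a mean of 0.07 TPM in DKO1, so its place depends on the threshold of 0.5 TPM. Within neighbours, ZNF234 and ZNF224 both had 15, although one was near 0 in WT and the other among the highest of the 31. ZNF404, with 1 CG, had fewer than any other of the 25, and 93.6% of all promoters had at least as many. The RefSeq start of ZNF404 lies inside the GENCODE release 29 gene model, well downstream of its 5′ end, so its window may not be the promoter in use, and that of ZNF225 also lies downstream of the model's 5′ end. Without ZNF404 the low genes had 10 to 18 CG dinucleotides. Methylation was not analysed here, and the start used in these cells is not known from the files.

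**Figure D4:**
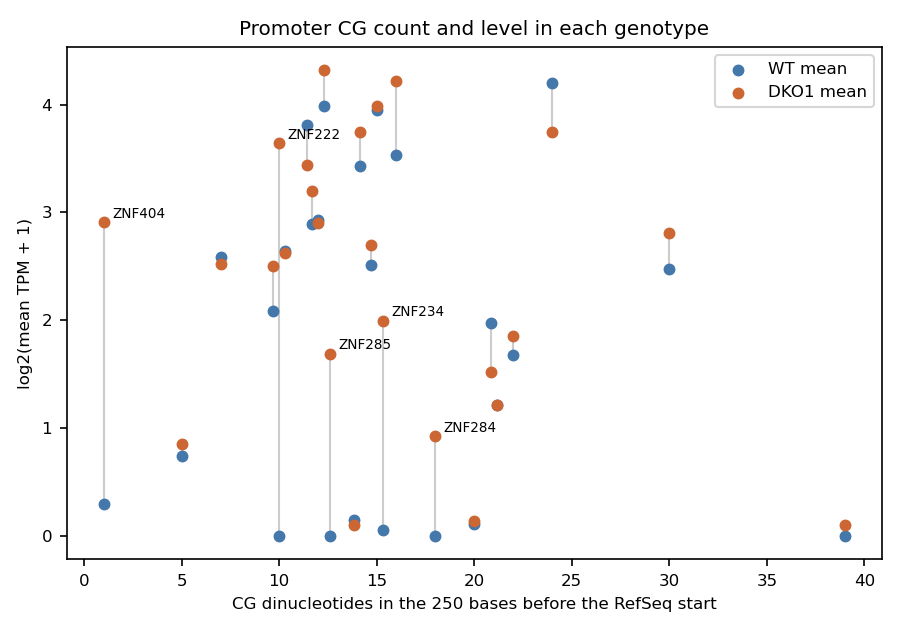
Number of CG dinucleotides in the 250 bases before the RefSeq start (horizontal) against log2(mean TPM + 1) (vertical) for 25 zinc finger genes, WT means in blue and DKO1 means in orange, joined by a line per gene. Genes with the same count are drawn slightly apart. The 5 labelled genes, low in WT and higher in DKO1, have 1 to 18 CG dinucleotides and lie among the counts of the other genes except for ZNF404.

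A short run of letters recurs in the printed windows. The motif TTCTGGGAA, noticed on reading the sequences and then searched on both strands, occurs in 13 of the 25 windows and in 0.96% of all promoters. Inside the cluster it was in 12 of 15 windows, and outside in 1 of 10, that of ZNF546. ZNF225 has 4 copies, and ZNF230, ZNF224, ZNF227, ZNF235 and ZFP112 have 2 each. The copy nearest the start ended 3 (ZFP112) to 92 (ZNF222) bases before it. Other zinc finger genes of chromosome 19 had it in 7 of 201 windows (3.48%), and the tested genes of other families between the members in 1 of 115 (0.87%). The motif was in 3 of the 5 windows of genes low in WT and higher in DKO1, in 10 of the 16 of genes expressed in WT, and in 0 of the 4 of genes low in both, which all lie outside the cluster. CCGGAAG, a core sequence of ETS factor sites that holds a CG, was in 6 of the 25 windows on either strand and in 8.82% of all promoters. It was present at ZNF222 and ZNF284, low in WT, and at ZNF230, ZNF226, ZNF283 and ZNF180, expressed in WT. A match is a stretch of letters and not a bound site, and windows of duplicated genes are not independent of each other. The printed windows from which the longer motif was picked are among those counted. Its excess over all promoters is therefore a description and no test.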

How the data were processed

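The 6 RNA libraries were made with a stranded messenger RNA kit and sequenced on an Illumina instrument, per the labels' protocols. The authors deposited 1 table of TPM values per gene. The submitters' processing notes name STAR 2.5.3a, Trim Galore 0.4.0, edgeR 3.12.1, RSEM 1.2.21 and FastQC, and the builds hg19 and GRCh37. They give no role or order for these. Neither the annotation nor the strand setting of the counting is given in the sources used here. Of 57897 rows, 77 were not human genes and stayed out of the tests. Names came from a gene table, RefSeq synonyms and GENCODE release 29, whose build (GRCh38) differs from that of the submitters, so it served for names, strands, gene order, overlaps and shared transcript sequence only. Promoter windows came from a RefSeq table (GRCh38.p14).

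Genes were tested with limma 3.58.1 in R 4.3.3 on log2(TPM + 1), with genotype alone in the design and a trend of variance with level, and the script was tested on simulated data. The members, lists and tests were chosen with earlier results of these data known. Every member is accounted for. Of the other genes between them, those named are the 3 largest called rises and 3 largest called falls without overlap between groups, and of the cofactors TRIM28, SETDB1 and the called ones. No ratio of TPM is given where a mean was below 0.5 TPM. Deviations from the group means correlated between samples of the same replicate number at 0.35, 0.572 and 0.267 over genes. Between different numbers the correlations were −0.383 to 0.128. The labels do not say that the numbers pair the samples, so the main fit is unpaired. A fit with the replicate block was run beside it. Alternatives were a pseudocount of 0.1, no filter, median-ratio scaling, quantile normalization, rescaling without mitochondrial and non-human rows, the block, and each sample left out.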

Additional observations from a re-analysis of the deposited data

How the results depend on the processing

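Among the 10 zinc finger genes that rose, 7 kept the call in all 12 alternative fits (ZNF404, ZNF222, ZNF223, ZNF234, ZNF285, ZNF155 and ZNF114), and ZNF45, ZNF221 and ZNF233 lost it as described. The median log2 fold change of the 26 genes, 0.29, was 0.04 under quantile normalization and 0.14 to 0.43 with a sample left out. Quantile normalization moved the median of all tested genes from 0.073 to −0.066, and rescaling without mitochondrial and non-human rows moved it to 0.173. The replicate block changed no call among the 26 tested genes and gave 6 cofactor genes called lower against 4. The count of these genes called lower, 0, was 2 under quantile normalization and 0 to 2 with a sample left out (2 without DKO1 replicate 3).

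For the other genes between them, no filter gave 34 higher and 6 lower, quantile normalization 6 and 20, the replicate block 26 and 6, and median-ratio scaling 6 lower, with 7 to 33 higher and 1 to 8 lower over the left-out samples. Cofactor genes called lower numbered 2 with rescaling and 0 to 5 with a sample left out. For other chromosome 19 zinc finger genes, no filter gave 112 higher, quantile normalization 22 lower, and left-out samples 71 to 73 higher and 5 to 20 lower. Over all genes, 4400 rose with no filter, and 1705 to 2842 rose and 524 to 2079 fell with a sample left out. The cause of these moves was not tested.

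Directions turned only for genes that were not called. With rescaling the log2 fold change was 0.03 for ZNF526, 0.05 for ZNF224, 0.03 for ZNF225 and 0.02 for ZFP112. Under quantile normalization it was −0.22 for ZNF576, −0.01 for ZNF428, −0.01 for ZNF283, −0.15 for ZNF230 and −0.04 for ZNF473. Without DKO1 replicate 1 it was 0.25 for ZNF224, 0.12 for ZNF225, 0.10 for ZNF235 and 0.13 for ZFP112. It was also 0.05 (without WT replicate 1) and 0.18 (without DKO1 replicate 2) for ZNF526, −0.08 for ZNF283 without DKO1 replicate 3, and 0.01 for ZNF224 without WT replicate 3. Over the left-out samples it ranged from −0.16 to 0.18 for ZNF526, −0.08 to 0.49 for ZNF283, −0.38 to 0.25 for ZNF224, −0.26 to 0.12 for ZNF225, −0.29 to 0.10 for ZNF235 and −0.30 to 0.13 for ZFP112. Depth is unknown from TPM, so how far it limits the low genes cannot be given.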
